A study of Drosophila melanogaster with 4 samples.

Results

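Cells that expressed wingless (wg) were examined in 4 single-cell RNA libraries of scrib mutant wing imaginal discs. The cells were chosen by their measured wg value. A cell was taken as a wg cell when its wg level was at least 1 unique molecular identifier (UMI, 1 per captured RNA molecule) per 10000 UMIs of that cell. This rule selected 464 of 3785 cells at 4 days after egg laying (AEL), 534 of 6457 at day 5, 240 of 3104 at day 8 and 218 of 1110 at day 14, which was 1456 of 14456 cells in all. They were compared, inside each library, with the cells in which wg was at 0, of which there were 2655, 5217, 2571 and 728 at days 4, 5, 8 and 14. A further 666, 706, 293 and 164 cells had wg UMIs below the threshold and entered neither group. All discs carried the genotype scrib-/-FRT82B and came from the parental strain scrib[1]FRT82B/TM6B. The larvae were raised at 25 degrees without crowding, and each age was 1 preparation and 1 library. No control discs were analysed here, so no value below compares mutant with normal tissue, and age cannot be told apart from preparation.

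The wg gene encodes a secreted Wnt ligand. In the wing disc of normal larvae it is known to be expressed in a stripe along the dorsoventral boundary of the wing pouch, in rings around the pouch in the hinge, and in a band across the notum. Wg binds Frizzled receptors on the receiving cells, which stabilises the beta-catenin Armadillo and switches on target genes such as nkd and fz3. The secreted hydrolase Notum is a known target that inactivates Wnt ligands, and the receptor gene fz2 is known to be repressed where Wg signalling is high. In the Ensembl annotation of BDGP6, wg lies on chromosome 2L at 7307159 to 7316265 on the plus strand. Wnt6 (7333714 to 7352542) and Wnt10 (7363379 to 7377528) follow on the same strand, with 17448 bases between wg and Wnt6 and 10836 bases between Wnt6 and Wnt10. Wnt4 (7255419 to 7277171, minus strand) lies 29987 bases before wg. The authors' build was not given in the sources used here, so these coordinates serve only to place the genes.

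The share of wg cells was 12.3% at day 4 (95% exact binomial interval 11.2 to 13.3), 8.27% at day 5 (7.61 to 8.97), 7.73% at day 8 (6.82 to 8.73) and 19.6% at day 14 (17.3 to 22.1). With every cell thinned to 14000 UMIs, and 572, 1597, 447 and 0 shallower cells left out, the shares were 12.6%, 7.14%, 7.45% and 18.4%. The intervals cover counting error only, and no difference between ages was tested because each age had 1 library. The day 14 share was the highest in both versions, and the day 5 and day 8 intervals overlapped. In the cells marked as myoblasts, which should lack wg (at least 3 of 7 myoblast markers detected; 152, 372, 209 and 51 cells), 3.95%, 1.88%, 4.31% and 25.5% had a wg UMI, against 30.9%, 20.3%, 18.1% and 34.8% of the other cells. At day 14 the share in myoblast-marked cells was therefore close to that of the other cells, and 7 of those 51 cells were counted as wg cells. Their median depth was 16923, 16229, 16357 and 18872 UMIs, against 23625, 19459, 18442 and 19232 in the other cells.

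**Figure D1:**
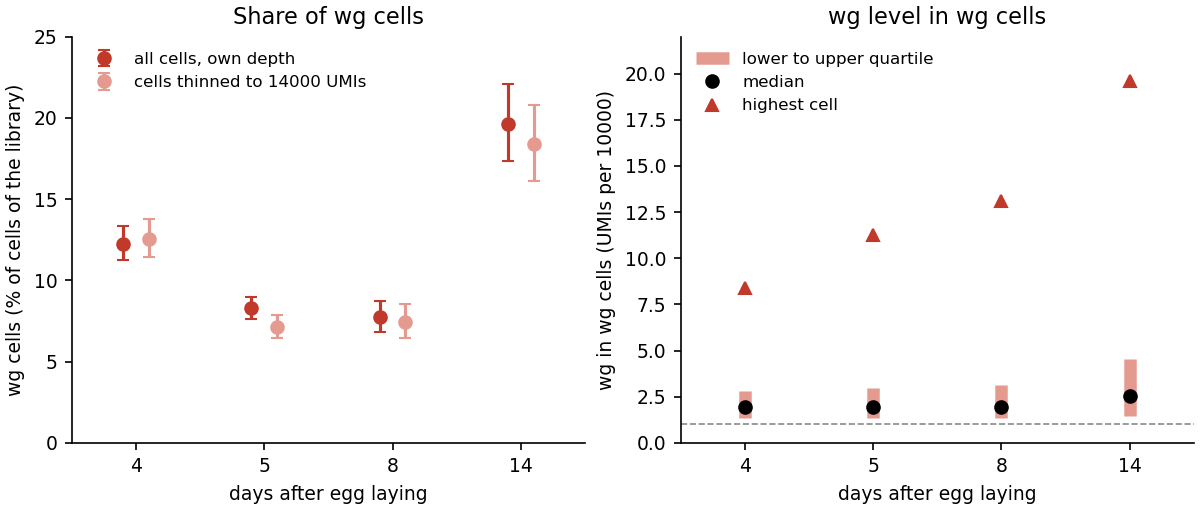
Left, wg cells as a percentage of the cells of each library, by days after egg laying, with 95% exact binomial intervals, for all cells and for cells thinned to 14000 UMIs. Right, the wg level in wg cells in UMIs per 10000, with the bar from lower to upper quartile, the median as a dot, the highest cell as a triangle and the threshold of 1 as a dashed line. The share was 19.6% at day 14, and the highest cell of each library was at 8.41, 11.2, 13.1 and 19.6.

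The wg level itself chose the cells and is given as a description. The median wg level in wg cells was 1.92, 1.93, 1.92 and 2.56 UMIs per 10000 at days 4, 5, 8 and 14, and the upper quartile was 2.81, 2.96, 3.15 and 4.56. Cells at or above 5 made up 0.661%, 0.604%, 0.709% and 4.32% of the libraries. The wg cells held 73.1%, 73.7%, 77.1% and 88.8% of all wg UMIs. The level was a range and not a step, since 347, 396, 186 and 97 cells lay within 1.5-fold of the threshold. The nearest members were at 1.00 and 1.00 (days 4 and 5) and 1.01 and 1.01 (days 8 and 14), and the nearest cells outside were at 0.998, 0.9999, 0.993 and 0.996. At day 4 and day 5, 16 and 42 members rested on 1 wg UMI. The wg cells and the cells with wg at 0 had similar depth, with medians of 23332.5, 17891.5, 18528.5 and 19063.5 UMIs against 22438, 18846, 18093 and 19022.5. Of the 14349 barcodes in the series, 107 occurred in more than 1 library, and 34 wg cells carried such a barcode.

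The label of the cells was checked on markers of the tissue. Of 8 disc epithelium markers, grh, sd, nub, vg and Dll were higher in wg cells in the test described next. Fas3, shg and crb did not pass it, and of all genes tested 6.51% were called higher. Of the markers, sd, nub, vg and Dll are also in the pouch list below, and vg and Dll in the Wg target list. The lists are therefore not independent. The summed level of the 8 was 13.7, 14.7, 19.7 and 21.3 UMIs per 10000 in wg cells, against 9.80, 9.69, 12.04 and 16.2 in cells with wg at 0. The 7 myoblast markers summed to 0.141, 0.131, 0.258 and 0.429 in wg cells, against 0.504, 0.579, 0.705 and 0.661. The 5 tracheal markers that the files list summed to 1.05, 1.34, 3.34 and 3.32 against 5.33, 6.14, 6.48 and 5.03, most of it from the chitin-binding protein gene Gasp, and btl was at 0 in the wg cells of days 4, 5 and 8. Of 6 hemocyte markers only 1 was listed in all 4 files, at up to 0.0217 in wg cells and 0.101 in cells with wg at 0. The part of these cell types in the differences below was tested only by leaving out the myoblast-marked cells.

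The comparison used the mean of each gene over the cells of a group, on the scale log2(UMIs per 10000 + 0.1), with the 4 libraries as pairs (limma, Benjamini-Hochberg adjusted over all genes tested). The p-values therefore measure how consistently a difference recurred over 4 libraries of different ages. The added 0.1 draws the differences of genes with means near or below 0.1 towards 0. Of 5205 genes tested, 339 were higher in wg cells (6.51%) and 473 were lower (9.09%). All 339 were higher in each library, and 471 of the 473 were lower in each library. The differences were small for most genes, since 17 of the higher and 44 of the lower genes differed by at least 2-fold on this scale, and the median over all genes was 0.02. Without the day 5 or the day 8 library the counts of higher genes were 91 and 88, and those of lower genes were 178 and 207.

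Wnt6, the neighbouring Wnt gene, had the largest difference. It was named as a marker of these cells with earlier results known, but it was not used to select them. Its mean was 1.57, 1.54, 1.45 and 1.41 UMIs per 10000 in wg cells at days 4, 5, 8 and 14, against 0.0869, 0.0647, 0.0704 and 0.101 in cells with wg at 0. The mean was higher in wg cells in each library, and the ratio of the means was 18.0, 23.8, 20.6 and 13.9. A Wnt6 UMI was found in 86.6%, 76.6%, 84.2% and 79.4% of wg cells, against 12.2%, 8.91%, 8.67% and 13.3% of cells with wg at 0. The log2 difference was 3.14 (SE 0.07, n = 4 libraries, adjusted p = 8.04e-06), and it kept its call in each of the 14 alternatives run.

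The other Wnt genes were expressed at low levels. Wnt5 was higher in wg cells, at 0.119, 0.161, 0.282 and 0.420 UMIs per 10000 against 0.112, 0.120, 0.173 and 0.296 (log2 difference 0.29, SE 0.08, adjusted p = 0.0441), but it lost its call in 10 of 14 alternatives, among them leaving out day 5, day 8 or day 14. Wnt10, next to Wnt6, fell under the filter of a mean of 0.1 and was not tested. It had 59, 34, 10 and 27 UMIs in wg cells (0.0504, 0.0310, 0.0180 and 0.0627 per 10000) against 41, 27, 13 and 5 UMIs in the larger group of cells with wg at 0 (0.00660, 0.00230, 0.00252 and 0.00327), so its mean was higher in wg cells in each library. Wnt4, on the other side of wg, was at 0.00236, 0.00279, 0.0461 and 0.0960 in wg cells, against 0.00659, 0.00344, 0.0216 and 0.110, and was higher only at day 8. Wnt2 was not listed for day 4, had no UMI in wg cells at day 5 and was at 0.158 and 0.337 in wg cells at days 8 and 14, against 0.0474 and 0.0820. WntD was listed in none of the files.

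**Figure D2:**
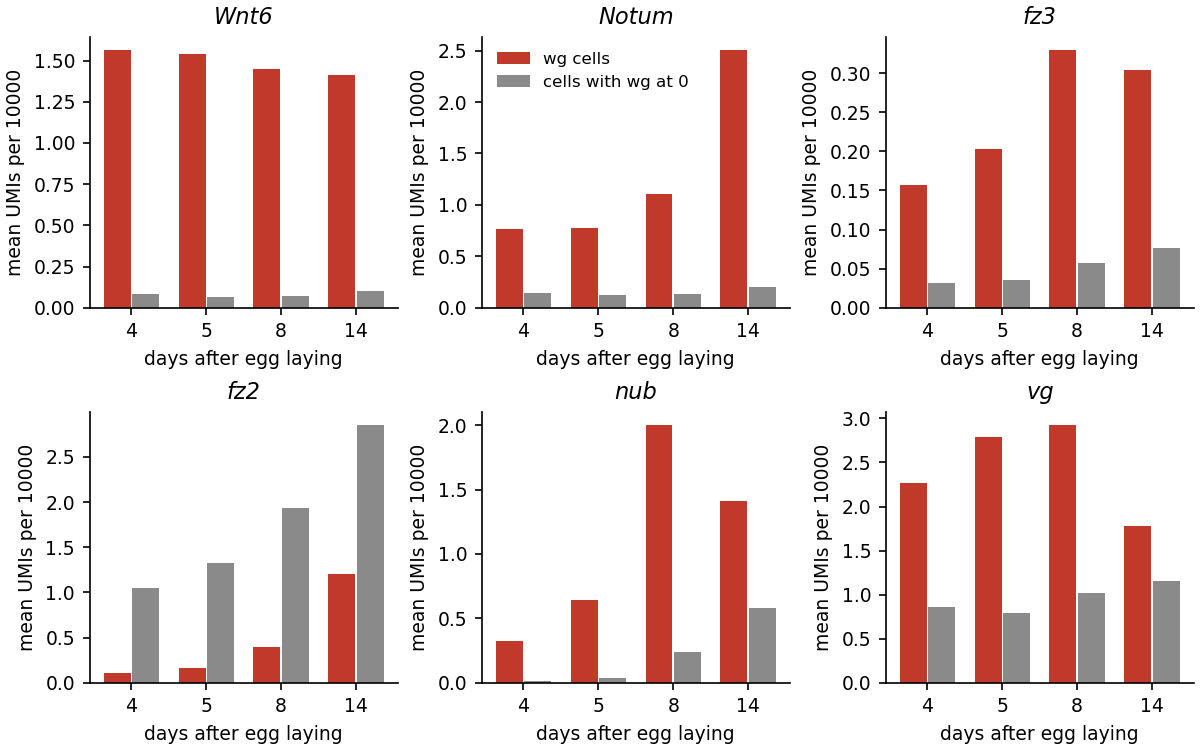
Mean level in UMIs per 10000 of 6 genes in wg cells (red, left bar) and in cells with wg at 0 (grey, right bar) of each library, by days after egg laying; each bar is 1 mean over cells, so no replicate error can be drawn. Wnt6, Notum, fz3, nub and vg were higher in wg cells in each library and fz2 was lower, with vg at 1.78 against 1.16 and fz2 at 1.20 against 2.86 at day 14.

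Genes that act on or respond to Wg were examined next. Of 25 genes of Wg secretion, reception and transduction, 20 were tested, of which Notum, dally, fz3 and nkd were higher in wg cells, fz2 was lower and 15 did not pass the test. The median difference of the 20 was 0.06, beside 0.02 over all genes, of which 6.51% were called higher and 9.09% lower. The genes that make and release the ligand were among those not called. wls, whose product carries Wnt proteins to the cell surface, was at 0.348, 0.371, 0.528 and 0.631 UMIs per 10000 in wg cells, against 0.338, 0.357, 0.489 and 0.581, and por, the Wnt acyltransferase gene, was at 0.194, 0.197, 0.182 and 0.217 against 0.188, 0.191, 0.205 and 0.242. Neither did arm, the beta-catenin gene, nor sgg, the kinase gene that marks it for destruction, nor the coreceptor gene arr pass the test.

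Notum had the second largest positive difference. Its mean was 0.763, 0.775, 1.10 and 2.51 UMIs per 10000 in wg cells at days 4, 5, 8 and 14, against 0.144, 0.122, 0.132 and 0.205 in cells with wg at 0. The wg cells of day 14 stood above those of the other ages, whereas those of cells with wg at 0 lay closer together (log2 ratio of day 14 over day 4, 1.60 in wg cells and 0.32 in cells with wg at 0). The log2 difference for Notum was 2.32 (SE 0.20, adjusted p = 0.00145), with 1.82, 1.98, 2.37 and 3.10 in the libraries of days 4, 5, 8 and 14.

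2 receptor genes differed in opposite directions. fz3 averaged 0.157, 0.203, 0.330 and 0.304 UMIs per 10000 in wg cells, against 0.0314, 0.0357, 0.0572 and 0.0764 (log2 difference 1.19, SE 0.08, adjusted p = 0.000661). fz2 averaged 0.111, 0.161, 0.399 and 1.20 in wg cells, against 1.05, 1.33, 1.94 and 2.86 (log2 difference -2.03, SE 0.20, adjusted p = 0.00214). A fz2 UMI was found in 17.5%, 19.9%, 33.8% and 64.7% of wg cells, against 71.9%, 77.0%, 83.9% and 88.2% of cells with wg at 0. The fz2 level was highest at day 14 in both groups, and its difference was smallest at day 14 (-1.19). The receptor genes fz and fz4 did not pass the test. dally, a glypican gene, was higher in wg cells by 0.30 (SE 0.03, adjusted p = 0.00307).

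Of 11 Wg target genes of the wing disc, 8 were tested and 7 were higher in wg cells, namely fz3, nkd, Notum, Dll, vg, ac and sc; Axn was not called, sens, neur and dm were not tested. The median difference of the 8 was 0.84, and of all genes tested 6.51% were called higher. Dll, a homeobox gene of distal appendage, was at 0.0609, 0.0928, 0.538 and 0.336 UMIs per 10000 in wg cells, against 0.00624, 0.0178, 0.0649 and 0.115 (log2 difference 1.07, SE 0.21, adjusted p = 0.0200). Its call was lost with cells thinned to 14000 UMIs and without day 5. The proneural genes ac and sc were higher by 0.60 (SE 0.10, adjusted p = 0.0122) and 0.61 (SE 0.11, adjusted p = 0.0169), and sc lost its call without day 8. nkd, a feedback inhibitor gene, was at 1.44, 1.41, 2.35 and 3.83 in wg cells, against 1.32, 1.18, 1.23 and 2.29, and its call (adjusted p = 0.0475) was lost without day 5, day 8 or day 14. Axn, another feedback inhibitor gene, was at 0.133, 0.138, 0.201 and 0.278 against 0.141, 0.139, 0.160 and 0.261.

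Wing pouch genes were examined as the next group. Of 12 pouch genes, 10 were tested, of which nub, rn, vg, sd, Dll, bi and vvl were higher in wg cells, salr and fj were lower, salm was not called, and pdm2 and dve were not tested. Their median difference was 1.09, and of all genes tested 6.51% were called higher and 9.09% lower. fj lost its call without day 4, day 5 or day 8, salr without day 5. nub, a POU-domain gene of the pouch, averaged 0.323, 0.642, 2.004 and 1.41 UMIs per 10000 in wg cells, against 0.0145, 0.0394, 0.236 and 0.579 in cells with wg at 0. It was higher in each library, by 22.3-fold, 16.3-fold, 8.49-fold and 2.44-fold (log2 difference 2.03, SE 0.23, adjusted p = 0.00288). The level in cells with wg at 0 was higher at each later age. rn, a zinc finger gene of the pouch and distal limbs, was at 0.244, 0.385, 0.643 and 0.332 in wg cells, against 0.0191, 0.0273, 0.0712 and 0.168 (log2 difference 1.57, SE 0.22). vg, the wing selector gene, was at 2.26, 2.79, 2.93 and 1.78 in wg cells, against 0.862, 0.797, 1.01 and 1.16 (log2 difference 1.25, SE 0.16, adjusted p = 0.00534). bi, a T-box gene, did not differ at day 14 (2.76 against 2.72), and its call was lost in 8 of 14 alternatives, among them leaving out day 4, day 5 or day 8.

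On the scale with 0.1 added, 8 of the 9 called pouch genes had their smallest difference at day 14, Dll being the exception. The Dll means were below 0.1 in both groups at days 4 and 5, which drew its differences towards 0 there. The ratio of the Dll means was 9.76 at day 4 and 8.30 at day 8, and it was smallest at day 14. The median difference of the 10 pouch genes was 0.94, 1.19, 1.15 and 0.48 at days 4, 5, 8 and 14. When both groups were limited to cells with at least 1 vg UMI, an alternative chosen after seeing the data (432, 491, 162 and 119 wg cells against 1717, 3008, 1226 and 345 cells with wg at 0), 118 genes were higher and 172 were lower. The differences of Wnt6 (3.10), Notum (2.09), nub (1.85), rn (1.40), fz3 (1.12) and fz2 (-1.79) kept their calls there. Of the 62 called genes followed through the alternatives besides Wnt6, 43 kept their call and 19 lost it, among them bi, nkd, ac, sc, fj, zfh2, ds, CG17278 and the 4 called E(spl) genes.

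In the lists of other disc regions fewer genes were called than in the pouch list. Of 11 hinge and pleura genes, 8 were tested, with zfh2 and ds higher and tsh and Doc1 lower. As shares of the 8, both directions lay above the 6.51% (higher) and 9.09% (lower) of all genes tested. zfh2 lost its call without day 4, day 5 or day 8, and ds without day 8. tsh, a zinc finger gene of the hinge and body wall, was at 0.169, 0.169, 0.284 and 0.850 UMIs per 10000 in wg cells, against 0.490, 0.653, 0.808 and 1.04 (log2 difference -1.03, SE 0.18, adjusted p = 0.0150). That call was lost without day 4, day 5 or day 8. hth, a homeobox gene of the hinge and notum, was at 5.68, 6.35, 10.9 and 16.7 in wg cells, against 7.66, 7.93, 10.3 and 14.3, and was not called. Of 9 genes of the compartments and the dpp pathway, only brk, which encodes a repressor of dpp targets, was called, with 0.191, 0.317, 0.538 and 0.591 in wg cells against 0.115, 0.147, 0.243 and 0.337. Of 10 notum genes 7 were tested, and only Bx, a LIM-domain gene, was called. Its level was 0.235, 0.353, 0.556 and 0.808 in wg cells, against 0.139, 0.204, 0.274 and 0.448.

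Genes of the Notch pathway and the dorsoventral boundary were also examined, since Notch is known to induce wg at that boundary. Of 20 genes, 15 were tested, 7 were higher and none was lower, beside 6.51% higher and 9.09% lower of all genes tested. N, the receptor gene, was at 3.44, 4.14, 5.58 and 8.81 UMIs per 10000 in wg cells, against 2.94, 3.21, 4.37 and 7.04 (log2 difference 0.31, SE 0.04, adjusted p = 0.00356). Dl, a ligand gene, was at 0.995, 1.10, 1.52 and 2.23 in wg cells, against 0.625, 0.579, 1.05 and 1.45 (log2 difference 0.63, SE 0.06, adjusted p = 0.00184). ap, the selector gene of the dorsal compartment, was higher by 0.66 (SE 0.04, adjusted p = 0.000351). Of the E(spl) complex, which Notch activates, m3-HLH, mbeta-HLH, m2-BFM and malpha-BFM were higher, by 0.17 to 0.75. The members m8-HLH, m7-HLH, mgamma-HLH and mdelta-HLH were tested and not called. mbeta-HLH lost its call whichever library was left out. m3-HLH and m2-BFM lost theirs without day 4, day 5 or day 8, and malpha-BFM without day 5. Ser, fng and Su(H) did not pass the test, and ct, a Notch and Wg target at the boundary, was under the filter.

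**Figure D3:**
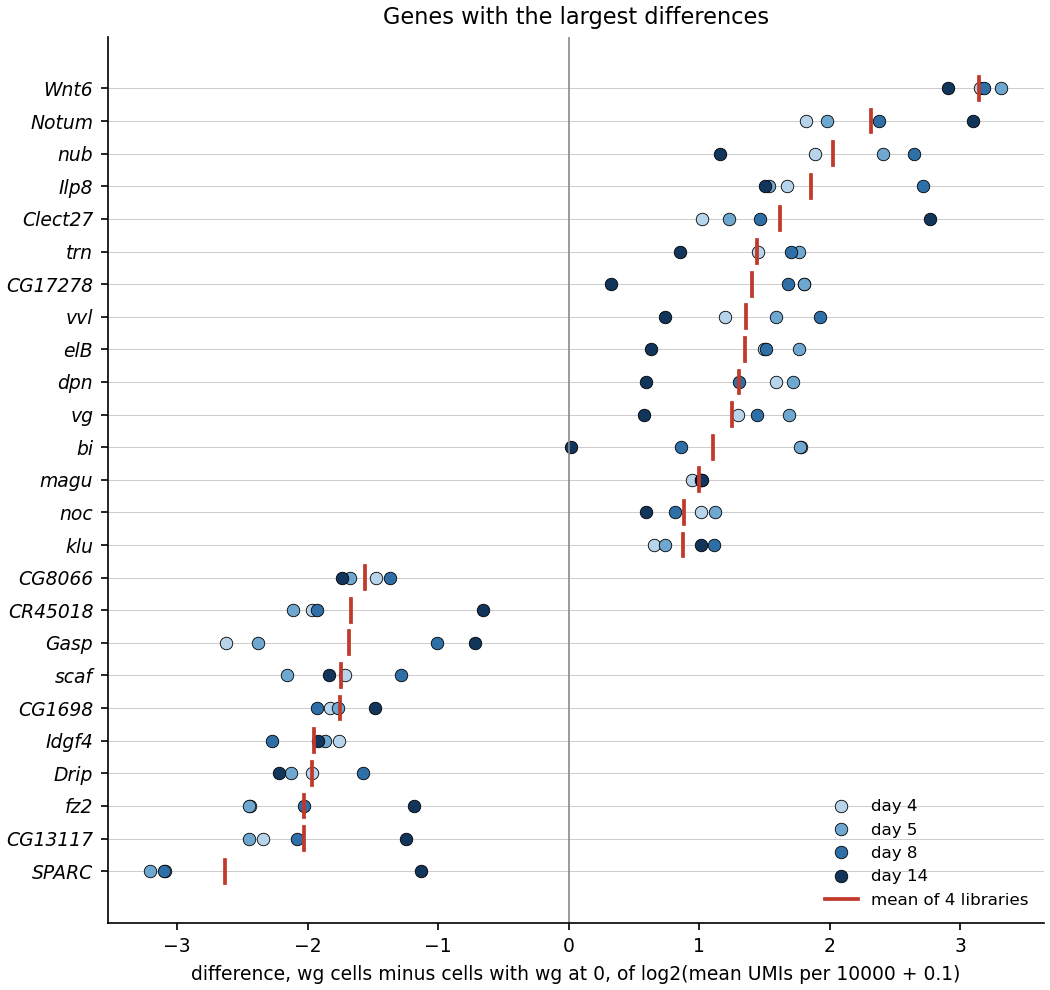
Difference between wg cells and cells with wg at 0 of log2(mean UMIs per 10000 + 0.1), for the 15 genes with the largest positive and the 10 with the largest negative called difference and the same sign in 4 of 4 libraries; each dot is 1 library, coloured by age, and the red line is their mean. Wnt6 averaged 3.14 and SPARC -2.64, and the day 14 dot lies nearest to 0 of the 4 for 17 of the 25 genes, nub and SPARC among them, and farthest from 0 for 5, namely Notum, Clect27, magu, Drip and CG8066. The added 0.1 draws the dots of low means towards 0. At day 4 this holds for Drip (0.0193 against 0.366) and magu (0.248 against 0.0810). Their order by age can therefore differ from that of the ratio of the means.

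Beyond these lists, the largest differences were found by rule, among genes with a mean of at least 0.5 UMIs per 10000 in the higher group and the same sign in each library. The higher genes were Wnt6, Notum, nub, Ilp8, Clect27, trn, CG17278, vvl, elB, dpn, vg, bi, magu, noc and klu. Clect27, named as a C-type lectin, averaged 0.603, 0.744, 0.881 and 5.25 in wg cells, against 0.247, 0.259, 0.255 and 0.685 (log2 difference 1.62, SE 0.27, adjusted p = 0.0118). Its call was lost without day 8. trn, a leucine-rich repeat protein gene, was at 2.16, 2.09, 1.98 and 2.97 in wg cells, against 0.726, 0.544, 0.539 and 1.60. The zinc finger genes elB and noc, which are closely related, were at 2.13, 2.36, 2.35 and 2.27 (elB) and 1.05, 1.17, 1.25 and 1.57 (noc) in wg cells, against 0.688, 0.624, 0.757 and 1.43 (elB) and 0.469, 0.486, 0.670 and 1.01 (noc). dpn, a Hes family repressor gene, was higher by 1.30 (SE 0.17, adjusted p = 0.00578). magu, which encodes a secreted SMOC protein, differed almost equally at each age on the scale with 0.1 added, by 0.94, 1.01, 1.01 and 1.02. Its level in wg cells was 0.248, 0.279, 1.07 and 2.86 at days 4, 5, 8 and 14. Its mean in cells with wg at 0 was 0.0810 at day 4, below the added 0.1. The ratio of its means was 3.07 at day 4 and 2.23 at day 8, so it was not equal over the ages.

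The 10 lower genes were SPARC, CG13117, fz2, Drip, Idgf4, CG1698, scaf, Gasp, CR45018 and CG8066. SPARC, a gene of basement membrane and extracellular matrix, was at 0.0897, 0.123, 0.189 and 0.326 UMIs per 10000 in wg cells, against 1.52, 1.96, 2.38 and 0.835 (log2 difference -2.64, SE 0.34, adjusted p = 0.00502). Few cells carried that difference, since a SPARC UMI was found in 6.25%, 6.93%, 11.2% and 6.88% of wg cells, against 10.3%, 13.9%, 14.6% and 13.3% of cells with wg at 0. Drip, an aquaporin gene, was at 0.0193, 0.0450, 0.404 and 0.178 in wg cells, against 0.366, 0.532, 1.40 and 1.19. Idgf4, a chitinase-like growth factor gene, was at 1.23, 1.29, 1.53 and 2.46 in wg cells, against 4.40, 4.97, 7.78 and 9.58 (log2 difference -1.95, SE 0.08, adjusted p = 0.000157). Gasp lost its call without day 4, day 5 or day 8. Without the myoblast-marked cells, 358 genes were higher and 511 were lower, of which 314 and 457 were called with all cells. In the Ensembl annotation, nub, Ilp8, dpn, bi, magu, rn, CG13117, fz2, Drip and CG1698 overlap a gene on the opposite strand. The sources used here do not state how strand was handled in counting. The part of such overlaps in these values was not tested.

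Signalling and stress genes of the tumors were set against wg because the study of these tumors followed JNK and ERK activity. Of 15 JNK and regeneration genes, 13 were tested, with Ets21C, Ilp8, rpr and hid higher, Jra, Pvf1 and Atf3 lower and 6 not called. The median difference of the 13 was 0.04, and of all genes tested 6.51% were called higher and 9.09% lower. Ets21C lost its call in 5 of 14 alternatives, among them leaving out day 4 or day 8. Ilp8, a relaxin-like hormone gene induced in damaged discs, averaged 1.83, 1.32, 4.07 and 6.51 UMIs per 10000 in wg cells, against 0.506, 0.392, 0.534 and 2.23 (log2 difference 1.86, SE 0.20, adjusted p = 0.00266). Its distribution was uneven, since the highest 10% of wg cells held 85.2%, 91.7%, 91.9% and 90.3% of the Ilp8 level and the median wg cell was at 0 at each age. Cells at or above 10 made up 4.96%, 4.12%, 7.92% and 11.5% of wg cells, against 1.32%, 1.11%, 0.972% and 4.67% of cells with wg at 0. rpr and hid, which encode activators of apoptosis, were higher by 0.57 (SE 0.14, adjusted p = 0.0385) and 0.23 (SE 0.04, adjusted p = 0.0145), and rpr lost its call without day 4, day 5 or day 8 and hid without day 5 or day 8.

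Other genes of the same list pointed the other way or were not called. Pvf1, a PDGF- and VEGF-related ligand gene, was at 0.0846, 0.0645, 0.141 and 0.173 UMIs per 10000 in wg cells, against 0.374, 0.398, 0.322 and 0.315 (log2 difference -1.09, SE 0.16, adjusted p = 0.00793). Jra, which encodes fly Jun, was lower by a log2 difference of -0.43 (adjusted p = 0.0341) and lost its call without day 4, day 5 or day 8. Mmp1, a matrix metalloprotease gene and JNK target, was at 0.623, 0.605, 0.700 and 0.862 in wg cells, against 1.20, 1.31, 0.707 and 0.898. It was lower at days 4 and 5 and nearly equal at days 8 and 14, and it was not called. puc, a feedback phosphatase gene of the JNK pathway, was at 0.293, 0.279, 0.368 and 0.649 against 0.426, 0.397, 0.326 and 0.668, also not called.

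The counts of the remaining lists stand beside the 6.51% of all genes that were higher and the 9.09% that were lower. Of 10 EGFR and ERK genes, 8 were tested, with Egfr, the receptor gene, higher by 0.32 (adjusted p = 0.0088) and pnt, a transcription factor gene of the pathway, lower by a log2 difference of -0.36 (adjusted p = 0.00749); Egfr lost its call without day 8. None of the 6 tested of 10 JAK/STAT genes and none of the 18 tested of 20 G2/M genes was called. Over all genes an unadjusted p under 0.05 was reached by 1753 of 5205. Of 20 S phase genes 17 were tested, and Mcm2, Mcm6 and CycE were higher by 0.20, 0.21 and 0.37, of which the Mcm genes lost their calls in 10 and 9 of 14 alternatives. Of 12 glycolysis genes Hex-A, a hexokinase gene, was higher, at 0.842, 1.04, 1.90 and 3.42 UMIs per 10000 in wg cells against 0.709, 0.838, 1.39 and 2.22, and its call was lost without day 8. Of 14 heat shock genes 10 were tested, and Hsp68 was higher by 0.34 (adjusted p = 0.0171), which was lost without day 5.

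Levels were also followed by degree of wg. In bins of wg at 0, above 0 and below 1, from 1 to below 2, from 2 to below 5, and 5 or more, the Wnt6 mean at day 4 was 0.0869, 0.490, 1.18, 1.84 and 3.27 UMIs per 10000. At day 14 the same bins gave 0.101, 0.485, 1.03, 1.67 and 1.71, so the 2 highest bins were alike. fz2 was lower in each higher bin at each age, with 1.05, 0.410, 0.141, 0.0848 and 0.0118 at day 4 and 2.86, 1.78, 1.30, 1.21 and 0.986 at day 14. Notum was highest in the middle bin at day 4 (0.828) and lower in the top bin (0.534), whereas at day 14 it was highest in the top bin, with 4.68 there against 0.205 at wg of 0. Clect27 in the top bin was at 0.592 at day 4 and 10.3 at day 14. The cells with wg above 0 and below 1, which are in neither group, had Ilp8 at 2.28, 1.19, 2.32 and 3.97 at days 4, 5, 8 and 14, which at days 4 and 5 was close to the level in wg cells. Mmp1 in those cells was at 1.84, 2.19, 0.812 and 1.16, above wg cells and cells with wg at 0 at each age. Those cells were also deeper than both groups, with medians of 27047, 23315, 20520 and 20476.5 UMIs. The part of depth in their Ilp8 and Mmp1 levels was not tested. The top bin held 25, 39, 22 and 48 cells.

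**Figure D4:**
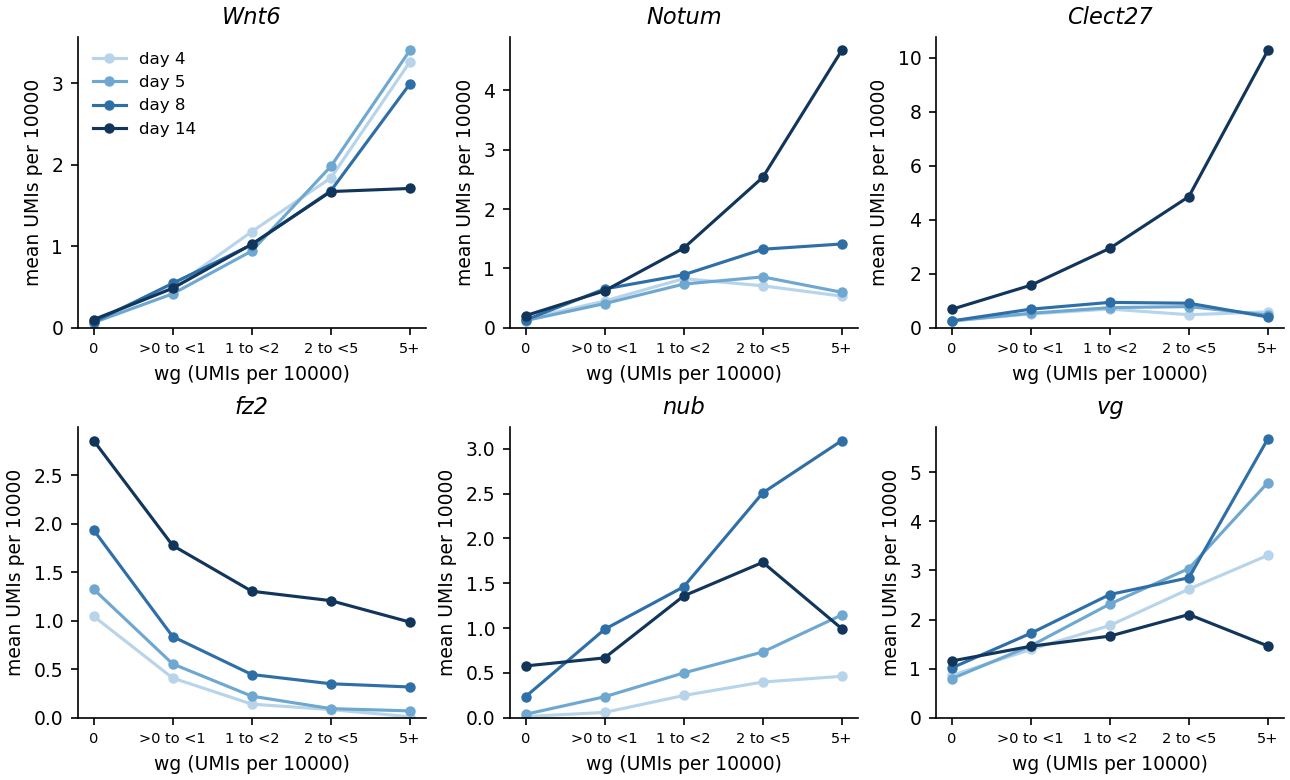
Mean level in UMIs per 10000 of Wnt6, Notum, Clect27, fz2, nub and vg in 5 bins of the wg level of the cell (x axis, UMIs per 10000), 1 line per library, darker with age; cells of a library are not replicates and no error is drawn. fz2 is lower in each higher bin on each line, and Notum and Clect27 reach 4.68 and 10.3 in the top bin at day 14.

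Across single cells, the genes most like wg were ranked by the mean over libraries of Pearson's r of the log values, among 6325 genes detected in at least 5% of the cells of each library. These values are descriptions of cells that share a library and a depth. The highest were Wnt6 (0.71, 0.68, 0.66 and 0.64 at days 4, 5, 8 and 14), Notum (0.31, 0.34, 0.42 and 0.63), elB (0.44, 0.43, 0.36 and 0.20), nub (0.37, 0.42, 0.45 and 0.15) and trn (0.33, 0.35, 0.35 and 0.27). rn, fz3, vg, Clect27 and dpn followed with means of 0.31, 0.29, 0.27, 0.26 and 0.26. The lowest was fz2, with a mean of -0.33. The relation to the pouch genes nub, rn and vg was weakest at day 14 (0.15, 0.10 and 0.08), and that to Notum and Clect27 was strongest there (0.63 and 0.42).

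The overlap of wg with Wnt6 was counted with the same threshold of 1. Both genes reached it in 281, 294, 129 and 126 cells, which was 60.6%, 55.1%, 53.8% and 57.8% of the wg cells and 64.0%, 60.5%, 53.3% and 72.0% of the Wnt6 cells. Among cells with wg at 0, 2.15%, 1.80%, 1.94% and 2.75% reached the Wnt6 threshold. Within wg cells, those with Wnt6 at or above 1 were compared with those with Wnt6 at 0 (62, 125, 38 and 45 cells). The median depth of the compared cells differed, with 23614, 19580, 18707 and 18607 UMIs in those with Wnt6 against 16150.5, 13207, 16639 and 18351 in those without. Thinning made the depth of the compared cells equal, but each cell kept the group it had at full depth. It left 39, 56, 30 and 45 cells with Wnt6 at 0. The part of depth in which cells entered each group was not tested. Of 5207 genes tested, 13 were higher (0.25%) and 18 were lower (0.346%) in wg cells with Wnt6. With cells thinned to 14000 UMIs these counts were 5 and 9, and with no filter on low values they were 1 and 0.

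The mean wg level was also higher in the cells with Wnt6, at 2.60, 2.80, 3.06 and 4.15 UMIs per 10000 against 1.80, 1.71, 2.12 and 3.02. Its part in the differences was not tested. nub was at 0.363, 0.794, 2.49 and 1.66 UMIs per 10000 in wg cells with Wnt6, against 0.165, 0.295, 1.48 and 0.812 in those with Wnt6 at 0 (log2 difference 0.91, SE 0.10, adjusted p = 0.000461). CG3726 was higher by 0.98 (SE 0.13, adjusted p = 0.00095), and E(spl)mgamma-HLH, CG17278, dpn, rn, vvl and Men-b by 0.57 to 0.79. elB, Hsp83, Sam-S, sesB and ATPsynC made up the rest. The 18 lower genes included fz2 (-0.78, adjusted p = 0.00633), tsh (-0.74, adjusted p = 0.0054), Idgf4 (-0.83, adjusted p = 0.000461), Drip, CG13117, luna and hui. Arc1, an arc-like capsid gene, had the largest difference (-1.21, SE 0.25, adjusted p = 0.0304), with 0.0363, 0.0559, 0.0658 and 0.356 in wg cells with Wnt6 against 0.171, 0.0511, 0.338 and 2.45 in those without, so it was not lower at day 5. When day 14 was left out, 47 genes were higher and 73 were lower.

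Genes of the pouch and the notum were then followed by age. A nub UMI was found in 29.5%, 44.6%, 63.8% and 38.1% of wg cells at days 4, 5, 8 and 14, against 1.36%, 3.28%, 10.1% and 24.3% of cells with wg at 0. eyg, a paired-type homeobox gene of the notum, was found in 2.16%, 1.69%, 11.7% and 53.2% of wg cells, against 10.4%, 9.03%, 16.2% and 31.6%. Its mean was 0.0104, 0.00886, 0.154 and 1.97 UMIs per 10000 in wg cells, against 0.0553, 0.0544, 0.159 and 0.443. Thus eyg was lower in wg cells at days 4 and 5, nearly equal at day 8 and higher at day 14, and it was not called (adjusted p = 0.716). mirr, an Iroquois gene, followed the same course, with 0.0316, 0.0280, 0.519 and 4.28 in wg cells against 0.05003, 0.0612, 0.576 and 1.28. The median difference of the 7 notum genes tested was -0.40, -0.44, -0.04 and 0.73 at days 4, 5, 8 and 14.

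Cells were therefore split by whether they had a nub or an eyg UMI, a split made after seeing the values and given with no test. At day 14, 57 wg cells had nub only, 90 had eyg only, 26 had both and 45 had neither, with median depths of 19188, 19345.5, 21077 and 18036 UMIs. The cells with eyg only had the higher wg (4.47 UMIs per 10000, against 2.99 in those with nub only), Notum (3.13 against 2.05), Clect27 (9.92 against 0.661), mirr (6.70 against 1.59) and fz2 (1.56 against 0.566). Wnt6 (1.29 against 1.92), vg (0.849 against 3.08) and rn (0.00676, which was 1 UMI, against 0.907) were lower in them. Ilp8 averaged 0.726 in the cells with eyg only and 18.9 in those with nub only. The highest 10% of day 14 wg cells held 90.3% of the Ilp8 level, so these means can rest on few cells. fz3 was similar, at 0.308 and 0.366. At day 8, 25 wg cells had eyg only and 150 had nub only, with wg at 1.76 and 3.03, Clect27 at 2.69 and 0.449, and mirr at 2.66 and 0.0381. At days 4 and 5 the wg cells with eyg only numbered 8 and 5, too few to describe.

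**Figure D5:**
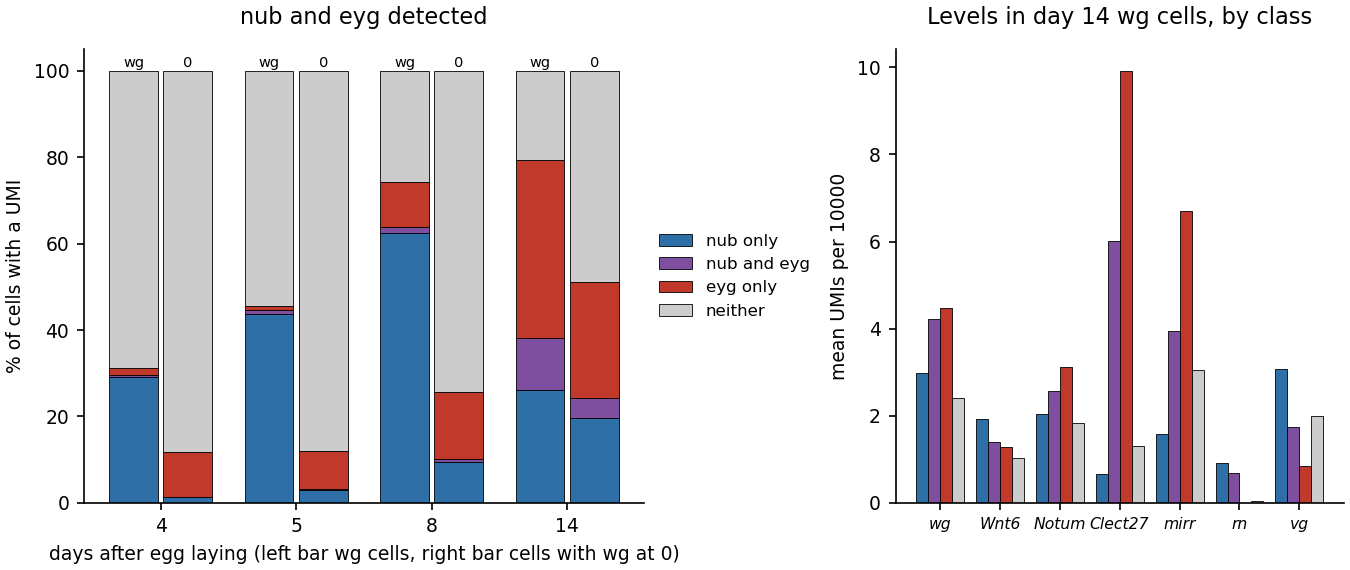
Left, percentage of wg cells (left bar of each pair) and of cells with wg at 0 (right bar) in which a UMI of nub only, of nub and eyg, of eyg only or of neither was found, by days after egg laying. Right, mean UMIs per 10000 of 7 genes in the 4 classes of day 14 wg cells, in the same colours, with 57 (nub only), 26 (nub and eyg), 90 (eyg only) and 45 (neither) cells; Clect27 was at 9.92 in cells with eyg only and 0.661 in cells with nub only.

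The mean Ilp8 level of wg cells with and without nub did not differ in the same direction at each age. Wg cells with a nub UMI averaged 0.429, 0.848, 5.05 and 15.3 UMIs of Ilp8 per 10000 at days 4, 5, 8 and 14, against 2.42, 1.71, 2.34 and 1.09 in wg cells without. The mean of the wg cells with nub was thus lower at days 4 and 5 and higher at days 8 and 14. Since the median wg cell had Ilp8 at 0 at each age, these means can rest on few cells. Wnt6 was higher in the wg cells with nub at each age (2.01, 1.95, 1.66 and 1.75, against 1.38, 1.21, 1.07 and 1.20).

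To set the ages side by side, 0.1 was added to each mean and day 14 was divided by day 4 on the log2 scale. This was done inside wg cells and inside cells with wg at 0, for 1441 genes with a mean of at least 1 in a group. The median was 0.17 in wg cells and 0.15 in cells with wg at 0, and the ratios of both groups lay within 1 of each other for 96.6% of the genes. The genes whose ratio was higher in wg cells by the most were Amy-p, Amy-d, eyg, ths, Phk-3, CG9628, SPARC and Gasp. eyg and ths reached the mean of 1 only in day 14 wg cells, and Amy-p, Amy-d and SPARC only in cells with wg at 0, so the minimum itself favoured their place in this order. For eyg the log2 ratio was 4.23 in wg cells and 1.81 in cells with wg at 0, and for ths, a fibroblast growth factor gene, 3.61 and 1.24. The day 4 means of eyg were 0.0104 and 0.0553, below the added 0.1, which made its ratios smaller than those of the means alone. Phk-3, which encodes a pherokine, was at 2.05, 2.75, 12.9 and 19.1 UMIs per 10000 in wg cells, against 8.23, 8.83, 8.99 and 14.6. The amylase genes Amy-p and Amy-d, near-identical copies whose reads may be split between them, differed most. Amy-p was at 0.0594, 0.0720, 0.0375 and 0.0358 in wg cells, against 2.13, 2.38, 0.815 and 0.0287 in cells with wg at 0. On the other side stood CG42808, bi, Cpr64Aa, CG17278, E(spl)m2-BFM, Mlc2, elB and CG17549. The day 4 level of Cpr64Aa in wg cells rested on 18 UMIs, found in 0.216% of those cells. CG42808 was at 1.19 and 0.235 in wg cells at days 4 and 14, against 0.367 and 0.315 in cells with wg at 0. These ratios set single libraries side by side and were not tested.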

How the data were processed

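Wing imaginal discs of scrib mutant larvae were dissociated with trypsin, and 10x single-cell libraries were made, 1 per age, which the labels give. The authors counted UMIs with Cell Ranger and normalised them with Seurat, as the submitters' processing notes and the study's methods state. The methods give a Seurat version for a plot of marker genes only. The Cell Ranger version, the genome build and the cell filters were not given in the sources used here. Each deposited value was a natural log, taken of 1 plus UMIs per 10000 of that cell. UMIs were recovered by division by the lowest value of each cell, with 100% of the values within 0.001 of a whole number. The libraries held 91045765, 134888985, 62338564 and 22458962 UMIs, with a median of 23326, 19258, 18298.5 and 19221.5 per cell at days 4, 5, 8 and 14. No doublet caller was run. The files listed 7845 genes in common.

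The members, the gene lists and the tests were chosen with earlier results of these data known. Means over cells of UMIs per 10000 were tested with limma 3.58.1 (R 4.3.3) on log2(mean + 0.1), with 8 group means, the library as a block and a mean-variance trend, for genes with a mean of at least 0.1 over the groups. Genes with an adjusted p under 0.05 were called. wg, and in the comparison by Wnt6 also Wnt6, were left out. Cells are not replicates, so the mean of each cell group in each library was the unit. The deposited values were log-normalised, and no count model was used. Shares carry exact Clopper-Pearson intervals at 95%, which cover counting error only. Scripts ran in Python 3.11.15 with numpy 2.4.6, scipy 1.17.1, pandas 2.3.3 and matplotlib 3.10.9.

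Genes were named by rule: the 15 largest higher and 10 largest lower called differences with a mean of at least 0.5 in the higher group and 1 sign in all libraries, the 10 genes most like wg, the 8 largest each way by Wnt6 and by age, and members of 20 lists. Cells were also split by nub and eyg UMIs after their values were seen. Alternatives were another pseudocount, no filter, other thresholds for wg, cells below the threshold as the reference, summed UMIs, thinned cells, other cells or genes left out, and each library left out.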

Additional observations from a re-analysis of the deposited data

Results flagged for a closer look

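For 6 of the genes on the lists or named by rule, the difference between wg cells and cells with wg at 0 was at least 0.5 on the log2 scale in both directions, upward in 1 library and downward in another. With 1 library per age, these contrasts between ages were not tested. eyg, of the notum, was at -0.50 at day 5 and 1.93 at day 14. ths, a fibroblast growth factor gene, was at -1.28 at day 5 and 1.33 at day 14. sty, a feedback inhibitor of receptor tyrosine kinase signalling, was at -1.31 at day 5 and 0.55 at day 14. kek1, which encodes an inhibitor of Egfr, was at -0.79 at day 4 and 0.96 at day 8. Phk-3 was at -1.95 at day 4 and 0.52 at day 8. Tpi, a glycolysis gene, was at -0.54 at day 5 and 0.54 at day 14.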

How the results depend on the processing

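Genes called higher or lower in wg cells numbered 339 and 473. They were 132 and 136 at a threshold of 5, and 118 and 172 with cells holding a vg UMI only, an alternative chosen after seeing the data. Leaving out 1 library gave 88 to 365 higher and 178 to 541 lower genes; the other 8 alternatives stayed within 1.5 times, 289 to 425 higher and 375 to 552 lower. In no alternative was a called gene called in the opposite direction. By Wnt6 within wg cells, 13 and 18 genes became 1 and 0 without the filter and 5 and 9 with thinned cells, and 6 to 47 and 8 to 73 with 1 library left out. The share of wg cells at days 4, 5, 8 and 14 was 5.73%, 3.92%, 3.61% and 11.4% at a threshold of 2, 0.661%, 0.604%, 0.709% and 4.32% at a threshold of 5, and 21.0%, 14.2%, 13.7% and 26.8% with ribosomal protein genes left out of the scaling. Thinning moved the day 5 share to 7.14%. Of the 62 single genes called and followed besides Wnt6, 33 lost the call under at least 1 alternative and none changed direction. Of the 10 genes followed that were not called, 6 changed sign: ths to 0.024 (pseudocount 0.5) and to between -0.83 and 0.040 with 1 library left out; Axn to -0.015 and mirr to -0.10 (vg cells only); mirr to between -0.22 and 0.45 with 1 library left out; Mmp1 to 0.071 (threshold 5); kek1 to -0.0473 (ribosomal protein genes left out) and to between -0.25 and 0.33; Tpi to 0.057 (pseudocount 0.5), 0.032 (vg cells only) and between -0.21 and 0.15. Of the same 10 genes, 4 were called, with the sign unchanged, under at least 1 alternative. Those calls were 3 without day 14, 2 at a threshold of 5 and 1 at a threshold of 2. The causes were not tested. No paired analysis by replicate number was possible because each age had 1 library; the libraries themselves are the pairs. Low UMI counts limit the genes below 0.1 per 10000, Wnt10 and Dll at the early ages among them.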

Other observations

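The sty and kek1 genes, both feedback targets of Egfr and ERK signalling, were measured at low levels in wg cells of the early ages. sty was at 0.113, 0.120, 0.618 and 1.91 UMIs per 10000 in wg cells at days 4, 5, 8 and 14, against 0.357, 0.448, 0.729 and 1.27 in cells with wg at 0, and was not called (adjusted p = 0.261). kek1 was at 0.0666, 0.137, 1.40 and 3.66 in wg cells, against 0.188, 0.228, 0.670 and 2.55. Both were lower in wg cells at days 4 and 5 and above cells with wg at 0 at day 14.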
